A study of Mus musculus with 2 samples.

Results

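The miR-29 family is a group of microRNAs that share one seed and are encoded in the mouse by 4 genes, Mir29a, Mir29b-1, Mir29b-2 and Mir29c. The 4 genes were chosen by symbol and not by a measured value, though with earlier results of these data known. They are 4 of the 2202 microRNA genes in the deposited count tables. MicroRNA-seq had been made from adrenal gland of male B6CASTF1/J mice, an F1 hybrid strain, at postnatal day 4, as 2 libraries labelled as biological replicates. Both libraries belong to a single group with no treatment, and their labels name the same donor while numbering the males apart. The labels therefore do not settle whether the libraries came from separate animals, and the spread between them may be partly technical. The adrenal gland holds a steroid-making cortex around a medulla of neuroendocrine chromaffin cells.

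MicroRNAs are short RNAs that guide Argonaute proteins to messenger RNAs, mainly through base pairing of the seed near the 5′ end with the 3′ untranslated region, and so lower the protein made from them. MiR-29 is known for restraining extracellular matrix: its described targets include fibrillar and basement membrane collagens, elastin and fibrillin, and the DNA methyltransferases Dnmt3a and Dnmt3b. Its level is known to climb as many tissues mature after birth and to drop in fibrosis of heart, liver, lung and kidney.

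The mature guide strands are printed here because their likeness decides which counts can be told apart. Sequences are those of RefSeq on GRCm38.p6, written 5′ to 3′, with the seed (bases 2 to 8) in capitals.
miR-29a-3p: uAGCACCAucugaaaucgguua
miR-29b-3p: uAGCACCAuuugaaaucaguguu
miR-29c-3p: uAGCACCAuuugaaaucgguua
The seed was identical in all of them, and no other name among the 1738 mature entries of the RefSeq table carried it. Counted from base 1 at the 5′ end, miR-29c-3p differed from miR-29a-3p by C10U alone over 22 compared bases. MiR-29b-3p differed from miR-29a-3p by C10U, G18A, U21G and A22U. From miR-29b-3p to miR-29c-3p the changes were A18G, G21U and U22A, so those strands were identical over their first 17 bases.

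Mir29b-1 and Mir29b-2 yield one and the same mature guide, miR-29b-3p. Their GENCODE M21 precursors are shown with the 23 bases of that guide in capitals.
Mir29b-1: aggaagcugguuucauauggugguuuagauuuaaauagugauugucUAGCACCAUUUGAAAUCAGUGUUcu
Mir29b-2: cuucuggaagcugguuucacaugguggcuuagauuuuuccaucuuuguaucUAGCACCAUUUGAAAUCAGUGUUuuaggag
The longest run of bases common to the precursor pair was 25, which is longer than the guide. A read of the guide strand alone therefore matches both loci. The opposite arms, with bases 2 to 8 in capitals, are shown because they do separate the loci.
miR-29a-5p: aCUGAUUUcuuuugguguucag
miR-29b-1-5p: gCUGGUUUcauauggugguuua
miR-29b-2-5p: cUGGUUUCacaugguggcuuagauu
miR-29c-5p: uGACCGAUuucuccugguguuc
The 5p arms of Mir29b-1 and Mir29b-2 shared a run of at most 9 bases. The tables give one count per gene, so the share of each arm in a count was not analysed here.

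In mm10 coordinates with the GENCODE M21 annotation, the family lies as a pair of genes on chromosome 6 and a pair on chromosome 1. Mir29a (ENSMUSG00000065610.1) spans 88 bases at chr6:31062660-31062747 on the minus strand and overlaps no other annotated gene. Mir29b-1 (ENSMUSG00000065604.2) spans 71 bases at chr6:31063023-31063093 on the same strand, 275 bases from Mir29a, and overlaps the lincRNA gene Gm27019 by 2 bases. Mir29b-2 (ENSMUSG00000065412.3) spans 81 bases at chr1:195037040-195037120 on the plus strand. Mir29c (ENSMUSG00000065548.1) spans 88 bases at chr1:195037547-195037634, 426 bases further on. Mir29b-2 and Mir29c both lie in an exon of a transcript of the noncoding gene A330023F24Rik, and opposite an untranslated exon of Cd46, which encodes a complement regulator on the minus strand. The nearest other microRNA gene to the chromosome 6 pair was Mir335, 321 kb away, with 22831 CPM in replicate 2 and 29029 CPM in replicate 1 (CPM, counts scaled to the library's sense-strand total). Next to the chromosome 1 pair the nearest were Gm24802, with 0 counts in both libraries, and Mir3962, with 5 counts in replicate 2 and 6 in replicate 1.

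Replicate 2 held 6557080 reads and replicate 1 held 11770895, and 1686822 reads of replicate 2 and 3961630 of replicate 1 were counted on the sense strand of microRNA genes. Reads aligned to more than one place made up 25.7% of replicate 2 and 27.0% of replicate 1, and stood apart from the gene counts. Across the 404 genes that reached 10 counts in one library or the other, log2 CPM correlated between the libraries at r = 0.961. This is a correlation across genes of 2 libraries and genes are not independent replicates. The 4 neuroendocrine markers summed to 46670 CPM in replicate 2 and 36299 CPM in replicate 1, mostly from Mir375, at 42377 CPM in replicate 2 and 31129 CPM in replicate 1. Their median log2 ratio of replicate 2 over replicate 1 was -0.13, and Mir7-2 was lower, at 67.0 CPM in replicate 2 and 138 CPM in replicate 1. No microRNA marker of the cortex was listed, so the cortex was not checked. The libraries stood apart in markers of other tissues. The hepatocyte microRNA Mir122 was at 20602 CPM in replicate 2 and 1299 CPM in replicate 1, and the summed erythroid markers were at 595 CPM in replicate 2 and 7248 CPM in replicate 1. Most of the erythroid sum was Mir451a, at 491 CPM in replicate 2 and 6842 CPM in replicate 1. Mir486 went the other way, at 19.6 CPM in replicate 2 and 12.4 CPM in replicate 1. The summed striated muscle markers were at 2698 CPM in replicate 2 and 1146 CPM in replicate 1. Mir206 made up most of that, at 2646 CPM in replicate 2 and 1130 CPM in replicate 1. Mir1b went the other way, at 1.19 CPM in replicate 2 and 3.28 CPM in replicate 1. The 4 kidney markers summed to 378 CPM in replicate 2 and 169 CPM in replicate 1. The part of these other tissues in the values that follow was not tested.

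The family's counts came almost wholly from Mir29a and Mir29c. Mir29a had 1866 counts, or 1106 CPM, in replicate 2 (95% exact interval 1057 to 1158) and 4454 counts, or 1124 CPM, in replicate 1 (1092 to 1158). Its mean was 1115 ± 12.8 CPM (SD, n = 2), and the intervals of the libraries overlapped. By mean level it ranked 89th of the 2202 genes. In bulk tissue fewer cells of a type and less RNA per cell cannot be told apart. Intervals here are Clopper-Pearson, and they cover counting error only, since reads without molecular identifiers are not independent molecules.

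Mir29c had 414 counts, or 245 CPM, in replicate 2 (222 to 270) and 650 counts, or 164 CPM, in replicate 1 (152 to 177). It averaged 205 ± 57.5 CPM (SD, n = 2) and ranked 173rd. Replicate 2 was the higher library, and the counting intervals did not overlap.

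Mir29b-1 had 43 counts, or 25.5 CPM, in replicate 2 (18.4 to 34.3) and 33 counts, or 8.33 CPM, in replicate 1 (5.73 to 11.7). Its mean was 16.9 ± 12.1 CPM (SD, n = 2), with an SD nearly as large as the mean, and it ranked 293rd. Here too replicate 2 lay above replicate 1 with intervals apart.

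Mir29b-2 had 7 counts, or 4.15 CPM, in replicate 2 (1.67 to 8.55) and 19 counts, or 4.80 CPM, in replicate 1 (2.89 to 7.49). It averaged 4.47 ± 0.457 CPM (SD, n = 2) and ranked 359th. The intervals overlapped almost entirely, and both values stood above the level of 3 counts that a count of 0 would allow, 1.78 CPM in replicate 2 and 0.757 CPM in replicate 1. Mir29b-2 was the one member below 10 counts in a library, so 3 of the 4 genes had at least 10 counts in both.

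**Figure D1:**
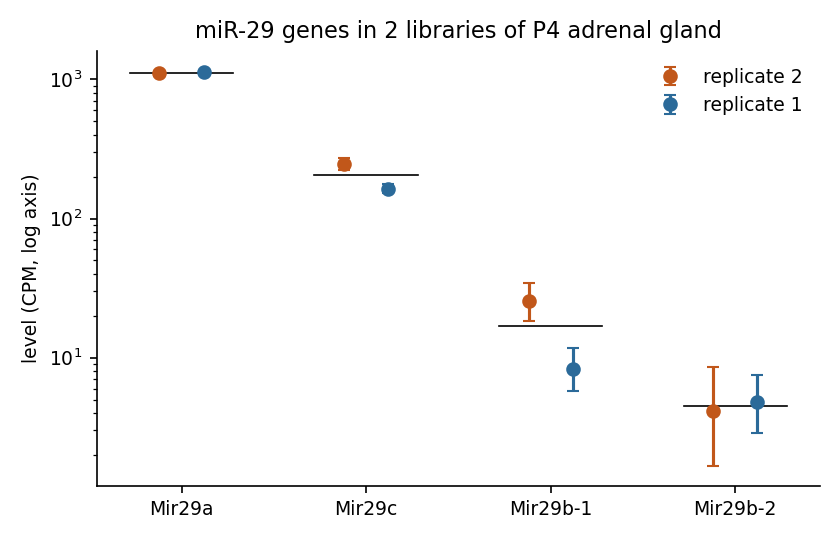
CPM on a log axis for the 4 miR-29 genes, replicate 2 left of replicate 1 within each gene, with bars for the 95% counting interval. Mir29a sits at 1106 CPM in replicate 2 and 1124 CPM in replicate 1, Mir29b-2 at 4.15 CPM in replicate 2 and 4.80 CPM in replicate 1, and the libraries are apart at Mir29c and Mir29b-1.

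The order Mir29a, Mir29c, Mir29b-1, Mir29b-2 was the same in both libraries, and no interval of one gene reached that of its neighbour in replicate 2. In replicate 1 the interval of Mir29b-1, 5.73 to 11.7 CPM, overlapped that of Mir29b-2, 2.89 to 7.49 CPM, so these neighbours did not separate there. Per 100 bases of precursor the mean levels were 1267 CPM for Mir29a, 233 for Mir29c, 23.8 for Mir29b-1 and 5.52 for Mir29b-2, in the same order. No count of any member lay on the opposite strand in either library.

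The summed level of the 4 genes was 1381 CPM in replicate 2 (1326 to 1439) and 1301 CPM in replicate 1 (1266 to 1337), with a mean of 1341 ± 56.4 CPM (SD, n = 2). Which library was higher depended on the scaling: with TMM factors replicate 2 summed to 1331 CPM, below replicate 1 at 1351 CPM, and with all reads as the total replicate 2 summed to 355 CPM, below replicate 1 at 438 CPM. The family thus held 0.134% ± 0.00564 of all sense-strand microRNA counts (SD, n = 2). Mir29a made up 80.1% of the family's counts in replicate 2 (78.4 to 81.7) and 86.4% in replicate 1 (85.4 to 87.3). Mir29a thus led the family's gene counts in both libraries, while its share was lower in replicate 2 with intervals that did not overlap. Reads of the miR-29b guide alone match both of its loci and stand outside these counts. Neither the summed level nor the shares include them.

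Within each genomic pair one gene far outnumbered its partner in the gene counts. Those counts leave out reads aligned to more than one place, and the guide of Mir29b-1 and Mir29b-2 matches both loci. The ratios within a pair therefore do not give the relative levels of the mature forms. For every 100 counts of Mir29a, its chromosome 6 neighbour Mir29b-1 had 2.30 in replicate 2 (1.66 to 3.12) and 0.741 in replicate 1 (0.509 to 1.04). On chromosome 1, Mir29b-2 had 1.69 counts per 100 of Mir29c in replicate 2 (0.676 to 3.52) and 2.92 in replicate 1 (1.75 to 4.60). The first ratio was higher in replicate 2 with intervals apart, whereas those of the second overlapped.

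Between the genes that lead each pair, Mir29c had 22.2 counts per 100 of Mir29a in replicate 2 (19.9 to 24.7) and 14.6 in replicate 1 (13.4 to 15.8). Between the loci of miR-29b, Mir29b-2 had 16.3 counts per 100 of Mir29b-1 in replicate 2 (6.18 to 36.5) and 57.6 in replicate 1 (30.9 to 104). Mir29b-1 had the higher count of the pair in both libraries, but the upper limit in replicate 1 took in equal counts. Reads of the shared guide alone are not in these counts, so the counts do not rank the loci by output.

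**Figure D2:**
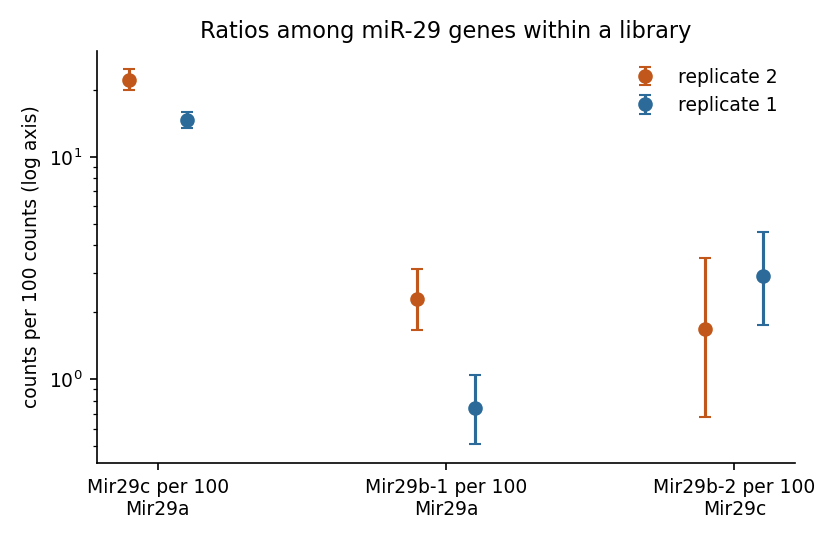
Counts of one miR-29 gene per 100 counts of another on a log axis, replicate 2 left of replicate 1, with bars for the 95% counting interval. Mir29c per 100 of Mir29a reads 22.2 in replicate 2 and 14.6 in replicate 1, and the ratios within each genomic pair stay below 5. Reads of the guide shared by Mir29b-1 and Mir29b-2 match both loci, so the ratios within a pair do not give levels of mature forms.

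The low counts of Mir29b-1 and Mir29b-2 have to be read with their shared guide strand. They are the 2 members whose mature form occurs in the precursor of another gene, and together they held 2.15% of the family's counts in replicate 2 and 1.01% in replicate 1. Reads with more than one alignment were reported apart from the gene counts, so the level of miR-29b cannot be read from these counts, and a low count at either locus does not show that the guide was scarce. Of the 2202 genes, 1250 could be matched to a RefSeq mature sequence, and 348 of these shared a mature form with another gene. Among the sharing genes 51 had at least 10 counts in both libraries, with a median of 97.6 CPM, and 4 of them (7.84%) reached 1000 CPM. Among the 902 genes that shared none, 259 had at least 10 counts in both libraries, with a median of 293 CPM, and 82 (31.7%) reached 1000 CPM. In this ordering of the 348 sharing genes by mean level Mir29b-1 was 44th and Mir29b-2 was 55th.

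**Figure D3:**
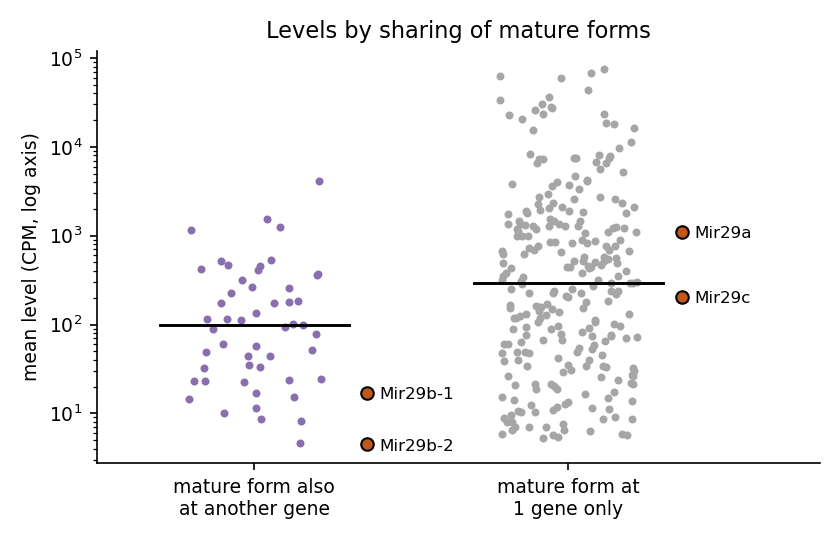
Mean CPM on a log axis of microRNA genes with at least 10 counts in both libraries, genes whose mature form is shared with another gene at left and genes with no shared form at right. The 51 sharing genes have a median of 97.6 CPM and the 259 others 293 CPM; the miR-29 genes are marked beside their column, Mir29b-2 below the count minimum of the dots.

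The miR-26, miR-30 and let-7 families also hold duplicated mature forms, and in each the sharing genes held a small part of the counts. In the miR-26 family, Mir26b, whose guide is its own, took 98.8% of the counts in replicate 2 and 99.8% in replicate 1, while Mir26a-1 and Mir26a-2, which share a guide, together took 1.24% in replicate 2 and 0.168% in replicate 1. In the miR-30 family of 6 genes, the loci Mir30c-1 and Mir30c-2 with a common guide held 0.853% in replicate 2 and 0.884% in replicate 1. The let-7 family, known for rising with differentiation, had 6 sharing genes among 12, which held 3.29% of its counts in replicate 2 and 2.61% in replicate 1. By summed level miR-29 was the lowest of these families, at 1341 ± 56.4 CPM, against 24063 ± 3084 CPM for miR-30, 33900 ± 12442 CPM for miR-26 and 190010 ± 13094 CPM for let-7 (SD, n = 2 each). The split was not general. Mir92-1, picked after its values were seen, shares a mature form with another gene and averaged 1160 ± 127 CPM, more than Mir92b at 48.6 ± 8.40 CPM (SD, n = 2 each), which shares none. Mir92-2, which also shares a mature form, averaged 43.8 ± 3.32 CPM (SD, n = 2) and did not stand above Mir92b. No test was made between families, as their levels depend on how many loci could be counted.

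The question left to the replicate design is how far the libraries differed at the family. Each gene was compared by a two-sided exact binomial test of its counts given the library totals, with Benjamini-Hochberg adjustment over 404 genes. This compares 2 libraries and not conditions, and at 1 library a side it carries no replicate error. A gene was called where the adjusted p was below 0.05 and the log2 ratio of replicate 2 over replicate 1, on CPM + 0.5, lay beyond 1 in either direction.

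Of the 4 members, 1 was called, Mir29b-1, and it was higher in replicate 2. Over all tested genes 18.3% were called, and 9.65% were called higher in replicate 2. The log2 ratio of Mir29b-1 was 1.56, a fold of 3.06 (95% exact interval 1.90 to 4.97; adjusted p = 4.29e-06 by the exact binomial test), and 365 of the 404 genes had a smaller ratio in size. With 4 genes, 1 call gives no reading against that background. Of the 61 tested genes within a factor of 2 of its mean level, itself among them, 14 were called.

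Mir29c had a log2 ratio of 0.58, a fold of 1.50 (1.32 to 1.69; adjusted p = 9.29e-10 by the exact binomial test). It passed the p threshold, as did 62.1% of all tested genes, but not the fold threshold. Its ratio was larger in size than that of 234 of the 404 genes, so it lay near the middle of the table.

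Mir29a had a log2 ratio of -0.02, a fold of 0.984 (0.932 to 1.04; adjusted p = 0.647 by the exact binomial test). Only 10 of the 404 genes had a smaller ratio in size, and none of the 63 tested genes within a factor of 2 of its level did, whose median was 0.52. This closeness held for the sense-strand total. With TMM factors the log2 ratio of Mir29a was -0.13 (adjusted p = 0.0019 by the exact binomial test), and with all reads as the total it was -0.41 (adjusted p = 2.57e-25 by the exact binomial test), where the scaling itself moved all ratios by -0.107 and -0.388. Under none of these did it pass the fold threshold. Mir29b-2 had a log2 ratio of -0.19, a fold of 0.865 (0.307 to 2.15; adjusted p = 0.893 by the exact binomial test). That interval is wide, so with 7 counts in replicate 2 and 19 in replicate 1 a difference of the size seen at Mir29c was not detectable.

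**Figure D4:**
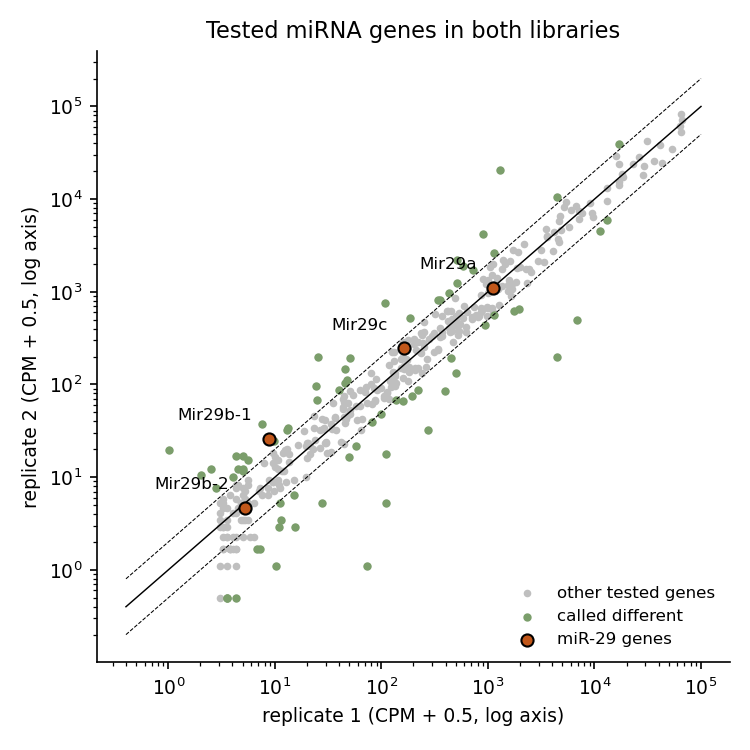
CPM + 0.5 of the 404 tested microRNA genes in replicate 2 against replicate 1 on log axes, with the solid line of equal level, dashed lines at a log2 ratio of 1 either way, called genes in green and the 4 miR-29 genes marked. Mir29a lies on the diagonal, at 1106 CPM in replicate 2 and 1124 CPM in replicate 1, and Mir29b-1 off it, at 25.5 CPM in replicate 2 and 8.33 CPM in replicate 1.

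Over the members the median log2 ratio was 0.28 and the median size 0.38, beside -0.05 and 0.50 over all tested genes. The spread between the libraries over the 340 genes with at least 10 counts in both amounted to a biological coefficient of variation of 0.394, as estimated by edgeR. Read against all 404 genes, the ratio of Mir29b-1 exceeded 90.3% in size and that of Mir29c 57.9%.

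The genes most like each member were taken as the 3 nearest in the plane of both log2 levels, a measure over 2 libraries only. For Mir29a they were Mir542, at 1029 CPM in replicate 2 and 1164 CPM in replicate 1, then Mir92-1 and Mir154. Nearest to Mir29c was Mir493, at 288 CPM in replicate 2 and 158 CPM in replicate 1, followed by Mir669o and Mir338. Mir29b-1 had Mir6240 beside it, at 24.3 CPM in replicate 2 and 8.33 CPM in replicate 1, then Gm23935 and Mir490. For Mir29b-2 the nearest were Mir5130, at 4.15 CPM in replicate 2 and 4.29 CPM in replicate 1, Mir3058 and Mir378d. By mean level Mir29a stood between Mir101b, at 1131 ± 338 CPM, and Mir542, at 1096 ± 95.5 CPM (SD, n = 2 each), and differed from neither beyond their spread. The same held for Mir29c between Mir429, at 208 ± 76.7 CPM, and Mir148b, at 184 ± 75.5 CPM (SD, n = 2 each).

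Around the family, a list of 35 other microRNAs known from matrix control and fibrosis was read, of which 34 matched a gene by symbol and 29 were tested. Mir18a was left out because the annotation names it Mir18. That gene was not called, at 676 CPM in replicate 2 and 1098 CPM in replicate 1. Among the 29 tested, 4 were higher in replicate 2 and 5 lower, and 20 were not called, which is 31.0% called beside 18.3% over all genes. The higher ones were Mir21a, a microRNA that goes up in fibrosis, at 39571 CPM in replicate 2 and 17010 CPM in replicate 1, Mir192 at 190 CPM in replicate 2 and 49.7 CPM in replicate 1, and the miR-26a loci. Mir192 is also a marker of kidney, and of the 4 kidney markers 2 were higher in replicate 2, Mir192 and Mir194-2, 1 was lower, Mir194-1, and 1 was not called. Mir194-2 was at 96.0 CPM in replicate 2 and 24.0 CPM in replicate 1. The part of RNA from kidney or from any other tissue in the value of Mir192 was not tested. Among the lower ones were Mir200b, which holds epithelial identity by repressing Zeb factors, at 32.0 CPM in replicate 2 and 272 CPM in replicate 1, and its relative Mir200c at 65.8 CPM in replicate 2 and 158 CPM in replicate 1. Markers of epithelium as a whole summed to 279 CPM in replicate 2 and 741 CPM in replicate 1. The remaining lower ones were Mir101a, Mir19a and Mir19b-1. The miR-26a loci, Mir101a and Mir19b-1 share a mature form with another gene, so their counts do not give the level of that form. The list's median log2 ratio was -0.25, beside -0.05 over all tested genes and 0.28 over the miR-29 genes.

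Of 24 microRNAs known to climb with tissue maturation, let-7 and miR-30 members among them, all were tested. In replicate 2, 2 were higher (Mir26a-1 and Mir26a-2), 1 was lower (Mir101a) and 21 were not called, which is 12.5% called beside 18.3% over all tested genes. Each of these called genes shares a mature form with another gene, so its count does not give the level of that form. The list's median log2 ratio was 0.26. Stromal and smooth muscle microRNAs, from the cells that make most of an organ's collagen, summed to 41751 CPM in replicate 2 and 44515 CPM in replicate 1, with 0 of 4 tested genes called by the exact binomial test, beside 18.3% over all tested genes. At 4 genes that count gives no reading against the background. By the same test 3 of them had an adjusted p below 0.05 without passing the fold threshold. Such an adjusted p, at any fold, was found for 62.1% of all tested genes. Mir143, the chief of the stromal markers, was at 37940 CPM in replicate 2 and 41567 CPM in replicate 1.

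The matrix genes that miR-29 is known to bind were not measured here, and their annotation is given as the reference side of the family. In each gene's longest 3′ untranslated region of the GENCODE M21 basic annotation the transcript strand was searched for TGGTGCT, the match to the seed, and for TGGTGCTA, which extends it by an A and contains it. Sites are shown for 2 fibrillar collagens, a basement membrane collagen, elastin, which has 2, and a methyltransferase, of whose 2 the first is shown. The 8-base match is in capitals.
Col1a1, chr11:94952524-94952545 (+): tgggaaggaatttcTGGTGCTA
Col3a1, chr1:45348968-45348989 (+): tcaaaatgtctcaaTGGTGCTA
Col4a1, chr8:11199761-11199782 (-): ccaccgtcacaacaTGGTGCTA
Eln, chr5:134703736-134703757 (-): gacctcatcaacgtTGGTGCTA
Eln, chr5:134703489-134703510 (-): tctccaagggaaatTGGTGCTA
Dnmt3a, chr12:3911391-3911412 (+): ccaggggaggtagcTGGTGCTA
The first 7 capitals pair with bases 2 to 8 of every miR-29 guide, and the last A lies opposite base 1. As the seed is common to miR-29a, miR-29b and miR-29c, the letters do not tell the members apart.

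Of 26 known or proposed targets, mostly genes of matrix and DNA methylation, 23 (88.5%) held the 7-base match and 19 (73.1%) the 8-base match. Over all 20939 genes with such a region the shares were 13.1% and 2.85%. The list was drawn from genes already described as miR-29 targets, so this is no independent evidence of targeting, and a match is a description of letters and not a site in use. At least 2 copies of the 8-base match stood in 6 of the 26 genes, Tet3, Tet2, Dnmt3a, Col5a1, Eln and Loxl2, beside 0.124% of all genes. Tet2 and Tet3 oxidise methylated cytosine, and Loxl2 cross-links collagen. The search found no 7-base match in Sparc, Serpinh1 or Col1a2. Length plays into such shares: among genes with a region within 25% of its length, the 8-base match stood in 2.21% for Col1a1, 1.92% for Col3a1, 1.98% for Eln, and 11.7% for Dnmt3a with its region of 6696 bases.

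**Figure D5:**
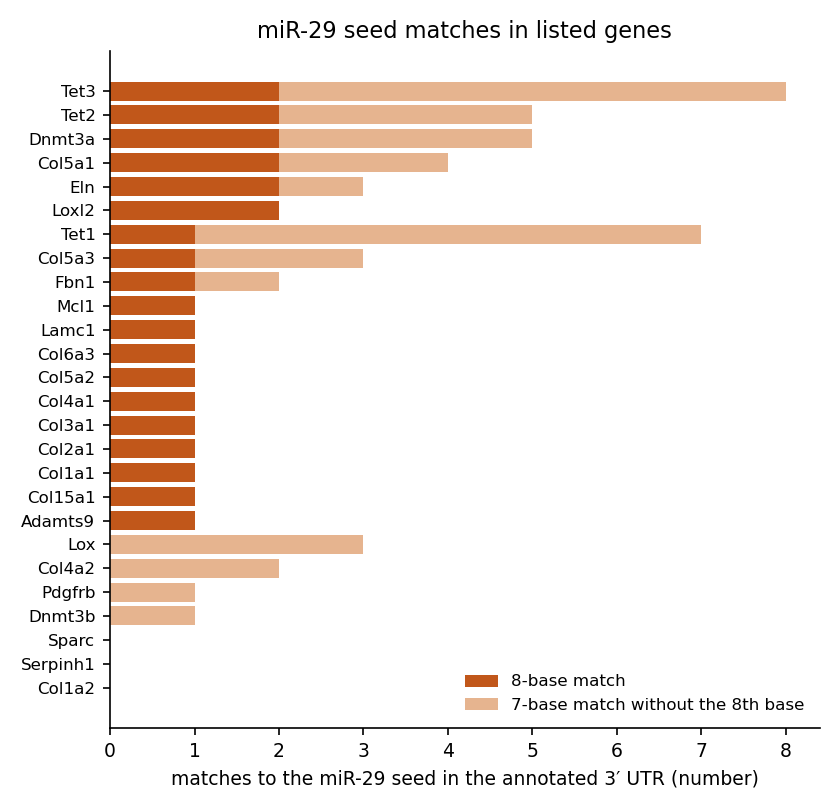
Number of 7-base and 8-base miR-29 seed matches in the longest annotated 3′ untranslated region of each of 26 known or proposed target genes. The 8-base match is present in 19 genes, and the rows with no 7-base match are Sparc, Serpinh1 and Col1a2.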

How the data were processed

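The authors deposited, per library, a table of raw read counts per microRNA gene on mm10 with GENCODE M21, per the file headers and labels; the aligner's settings are not given in the sources used here. Of its columns the count on the gene's own strand was used. From these counts CPM over the sense-strand total, exact binomial tests with Benjamini-Hochberg adjustment over the 404 genes reaching 10 counts in one library or the other, and Clopper-Pearson intervals were computed in Python 3.11.15 (scipy 1.17.1). With 1 group of 2 libraries no quasi-likelihood test between groups was possible; edgeR 4.0.16 gave the spread and TMM factors, and DESeq2 1.42.0 its size factors, both over 2202 genes. The test was tested on simulated data that held counting error only, which cannot show how it behaves under a wider spread between libraries. Named genes were the 4 members, their 3 nearest genes, their neighbours by level and genome position, and called genes of the lists; the examples among 3′ region matches were chosen after their values were seen. The members and lists were chosen with earlier results of these data known. Alternatives were other scalings, the either-strand column, all reads as total, a total without markers of other tissues, pseudocounts, filters and each library alone. Levels per length of precursor were added after seeing the data.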

Additional observations from a re-analysis of the deposited data

How the results depend on the processing

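With all reads as the total, mean levels were 397 CPM for the summed family, 331 for Mir29a, 59.2 for Mir29c, 4.68 for Mir29b-1 and 1.34 for Mir29b-2. The either-strand column held the same counts of the members over smaller totals, 1470932 in replicate 2 and 3483881 in replicate 1. It gave 1532 CPM for the sum, 1274 for Mir29a and 5.11 for Mir29b-2. A total without liver, erythroid and muscle markers gave 1134 CPM for Mir29a. A log2 threshold of 0.58 called 132 genes, 66 higher in replicate 2 and 66 lower. TMM and DESeq2 factors shifted the log2 ratios by -0.107 and all reads by -0.388; with all reads 82 genes were called, 19 higher and 63 lower, against 39 and 35. Mir29b-1 was called higher in replicate 2 under every scaling and filter tried, with log2 ratios down to 1.10 with all reads, where Mir29c had an adjusted p of 0.0513 by the exact binomial test. Mir29a, not below an adjusted p of 0.05 on the sense-strand total, was below it with TMM, DESeq2 and all-read scaling, as the report gives, and the summed level was then lower in replicate 2 than in replicate 1. Each library alone spans 1301 to 1381 CPM for the sum, 1106 to 1124 for Mir29a, 164 to 245 for Mir29c, 8.33 to 25.5 for Mir29b-1, 4.15 to 4.80 for Mir29b-2, and 80.1 to 86.4% for the share of Mir29a, which says nothing on stability. The order of the genes was the same per length of precursor, an alternative chosen after seeing the data. Counts of 7 to 43 limit both miR-29b loci.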
